A study of Mus with 6 samples.

Results

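The genes examined here are 9 nuclear genes that bring pyruvate into mitochondria and turn it into acetyl-CoA. They were taken by symbol from the table of 10995 protein-coding genes, and all 9 were found: Mpc1 and Mpc2 of the mitochondrial pyruvate carrier, the pyruvate dehydrogenase complex genes Pdha1, Pdhb, Dlat, Dld and Pdhx, the phosphatase gene Pdp1 and the kinase gene Pdk3. RNA came from naive CD4+ T cells of the mouse spleen (genotype WT in the labels), which were cultured for 3 days with antibodies to CD3 at 5 μg/mL and CD28 at 2 μg/mL and with IL-2 at 100 U/mL. All 6 libraries share this activation, and no unstimulated library was analysed here. In 3 libraries the culture held an antibody that neutralizes the growth factor VEGF-B, and in the other 3 control goat IgG, each at 1 μg/mL, so that the comparison asks what blocking VEGF-B does to the transcripts of activated helper T cells. The labels do not say whether the 3 libraries of a group came from separate mice or cultures, so the p-values measure the spread between these libraries, which may be technical.

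Pyruvate made by glycolysis crosses the inner mitochondrial membrane through a carrier formed by MPC1 and MPC2. In the matrix the pyruvate dehydrogenase complex converts it to acetyl-CoA with 3 enzymes, namely the decarboxylase E1 (PDHA1 and PDHB), the lipoyl-bearing transacetylase E2 (DLAT) and the dehydrogenase E3 (DLD), which the binding protein PDHX anchors to the E2 core. Kinases such as PDK1 and PDK3 switch the complex off by phosphorylating PDHA1, and the phosphatases PDP1 and PDP2 switch it on again. In activated T cells, which send much of their glucose carbon to lactate, this step is a control point for the carbon that reaches the tricarboxylic acid cycle and, through citrate, lipid synthesis.

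Of the 9 genes, 3 fell with anti–VEGF-B (Pdhx, Dlat and Pdha1), 1 rose (Pdk3) and 5 did not pass the test (Mpc1, Mpc2, Pdhb, Dld and Pdp1). A gene counts as passing at an adjusted p under 0.05 in limma, fitted to log2(FPKM + 1) of the 8816 genes whose mean reached 1 FPKM and adjusted over all of them (Benjamini-Hochberg). FPKM, the unit of the table, is scaled for transcript length and library size, and the number of reads behind it is unknown. By this rule 28.7% of all genes tested passed, 23.8% as lower and 4.87% as higher with anti–VEGF-B. The median log2 fold change of the 9 genes was -0.14, beside -0.15 for all genes tested, and 6 of the 9 were below 0, beside 71.2% of all genes. The values of the groups did not overlap for 6 of the 9 genes (Mpc1, Pdha1, Dlat, Dld, Pdhx and Pdk3), beside 49.0% of all genes. With 9 genes these counts and this median lie near those of all genes. The members differed from each other, with log2 fold changes from -0.57 for Pdhx to 0.27 for Pdk3.

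**Figure D1:**
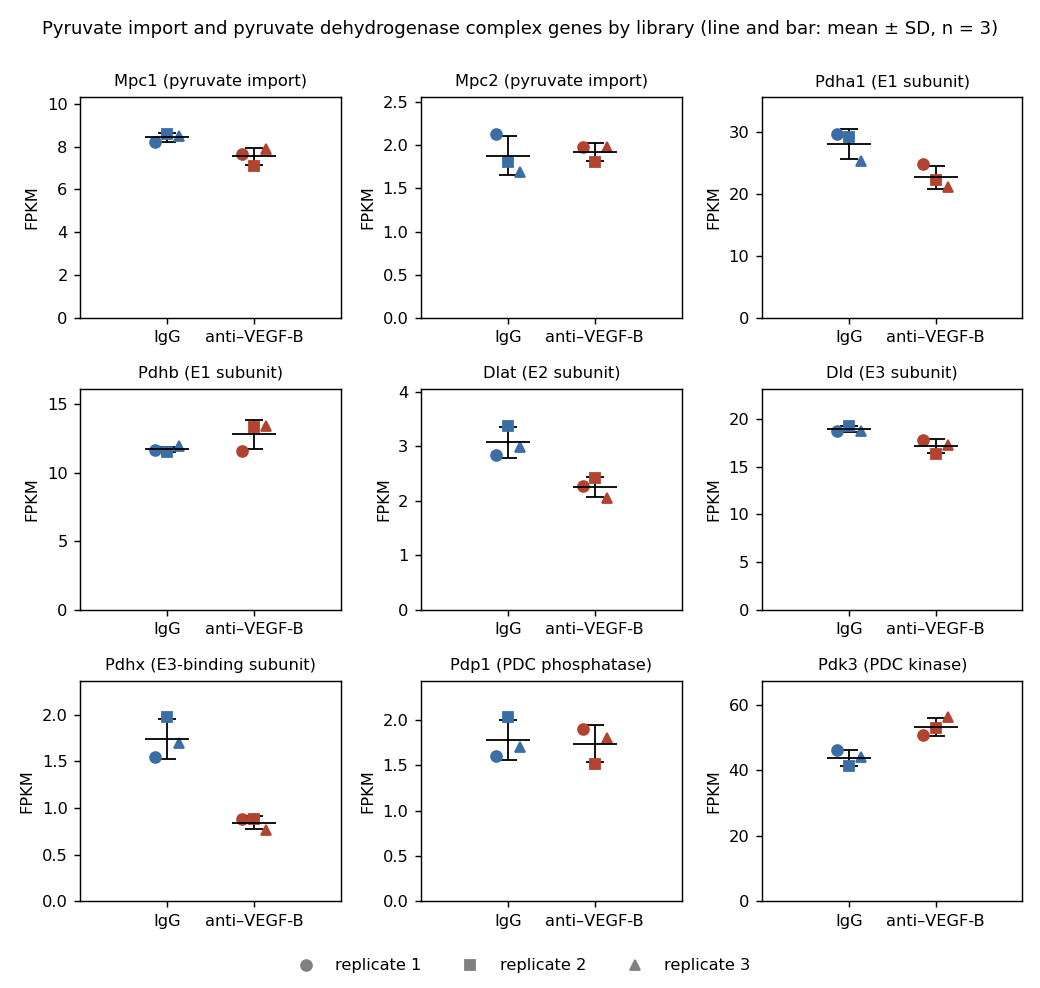
FPKM (vertical axes, each starting at 0) of the 9 genes in the 3 IgG libraries (blue) and the 3 anti–VEGF-B libraries (red), with marker shapes for the replicate numbers and a line and bar for the mean ± SD. The 3 Pdhx values with anti–VEGF-B lie between 0.764 and 0.885 FPKM, under the lowest IgG value of 1.55, while the groups overlap for Mpc2, Pdhb and Pdp1.

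The core of the complex held the largest log2 fold change of the 9 genes. Pdhx (ENSMUSG00000010914.10, chromosome 2 of GRCm38, 103021075 to 103073513), which encodes the protein that tethers E3 to the E2 core, was at 0.885, 0.881 and 0.764 FPKM in the anti–VEGF-B libraries and at 1.55, 1.97 and 1.70 FPKM in the IgG libraries. Every anti–VEGF-B value was under every IgG value, with a gap wider than the range within either group. The means were 0.843 ± 0.0686 and 1.74 ± 0.217 FPKM (SD, n = 3 each), 2.06-fold lower with anti–VEGF-B. On the log2(FPKM + 1) scale, which understates the change of a gene this low, the fold change was -0.57 (standard error, SE, of 0.103, limma adjusted p = 0.00832). Only 7.74% of genes tested had a lower log2 fold change. Pdhx reached the filter of 1 FPKM through the IgG libraries, and its adjusted p was 0.0111 in the limma fit without the filter. It passed in each of the 6 fits that left out 1 library (adjusted p from 0.0105 to 0.0354) and under each of 4 other scalings between libraries (0.00896 to 0.0257). Without limma's moderation of variances its adjusted p was 0.0696, the highest of its 14 alternatives, over which it ran from 0.00824.

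Dlat (ENSMUSG00000000168.9, chromosome 9, 50634633 to 50659780) encodes E2, the transacetylase whose lipoyl arms carry the acetyl group to coenzyme A. It had 2.27, 2.42 and 2.05 FPKM with anti–VEGF-B against 2.84, 3.38 and 2.99 FPKM with IgG, again with no overlap. The means of 2.25 ± 0.184 and 3.07 ± 0.281 FPKM (SD, n = 3 each) differed 1.37-fold, and the log2 fold change was -0.33 (SE 0.104, limma adjusted p = 0.0435). This call was close to the threshold. It held in only 1 of the 6 fits without 1 library, that without IgG replicate 1 (adjusted p from 0.0456 to 0.151 over the 6), and under none of the 4 other scalings (0.111 to 0.455). Without the filter on low values the adjusted p was 0.0517, and over all alternatives it ran from 0.0427 to 0.455.

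Dld (ENSMUSG00000020664.10, chromosome 12, 31331277 to 31351453) encodes E3, the flavoprotein that reoxidizes the lipoyl groups and that the 2-oxoglutarate, branched-chain and glycine cleavage systems use as well. Its values of 17.8, 16.3 and 17.3 FPKM with anti–VEGF-B all lay under the 18.8, 19.3 and 18.8 FPKM with IgG. The difference was small, at 1.11-fold, and did not pass (log2 fold change -0.14, 95% confidence interval -0.31 to 0.030, limma adjusted p = 0.184). It lay near the shift of all genes, and once libraries were centred on their medians its log2 fold change was 0.063.

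Of the E1 subunit genes, Pdha1 fell and Pdhb did not pass. Pdha1 (ENSMUSG00000031299.10, chromosome X, 160122209 to 160138413), the gene of the alpha subunit that the kinases phosphorylate, had 24.7, 22.2 and 21.1 FPKM with anti–VEGF-B and 29.7, 29.1 and 25.3 FPKM with IgG. The groups were separate, though anti–VEGF-B replicate 1 and IgG replicate 3 lay near each other. The means of 22.6 ± 1.87 and 28.0 ± 2.39 FPKM (SD, n = 3 each) differed 1.24-fold, with a log2 fold change of -0.30 (SE 0.0927, limma adjusted p = 0.0417). Among all genes tested 30.4% had a lower log2 fold change. The call of Pdha1 held without anti–VEGF-B replicate 1 and without IgG replicate 3. Leaving out anti–VEGF-B replicate 2 or 3 ended it (adjusted p of 0.0946 and 0.143), as did leaving out IgG replicate 1 or 2 (0.1003 and 0.115) and rescaling under each of the 4 other scalings (0.0875 to 0.479), against 0.0258 to 0.479 over all alternatives.

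Pdhb (ENSMUSG00000021748.9, chromosome 14, 8165996 to 8173025), the gene of the beta subunit, had 11.6, 13.4 and 13.5 FPKM with anti–VEGF-B and 11.7, 11.5 and 11.9 FPKM with IgG. Anti–VEGF-B replicate 1 lay among the IgG values and the other two lay above them. The log2 fold change was 0.12 (95% confidence interval -0.078 to 0.31, limma adjusted p = 0.324). It passed in 1 of 15 alternatives, median centring, with 0.32 (adjusted p = 0.0382, with a range of 0.0382 to 0.602).

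The carrier genes did not pass. Mpc1 (ENSMUSG00000023861.17, chromosome 17, 8282904 to 8297661) had 7.66, 7.08 and 7.87 FPKM with anti–VEGF-B and 8.21, 8.60 and 8.50 FPKM with IgG. These values did not overlap, but the log2 fold change of -0.15 was that of the all-gene median (95% confidence interval -0.34 to 0.048, limma adjusted p = 0.218) and was 0.025 after quantile normalization, 0.019 after cyclic loess and 0.056 after median centring. Mpc2 (ENSMUSG00000026568.6, chromosome 1, 165460637 to 165481214), its partner, ran from 1.81 to 1.99 FPKM with anti–VEGF-B and from 1.70 to 2.14 FPKM with IgG. The groups of Mpc2 overlapped throughout, with a log2 fold change of 0.025 (95% confidence interval -0.21 to 0.26, limma adjusted p = 0.871).

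**Figure D2:**
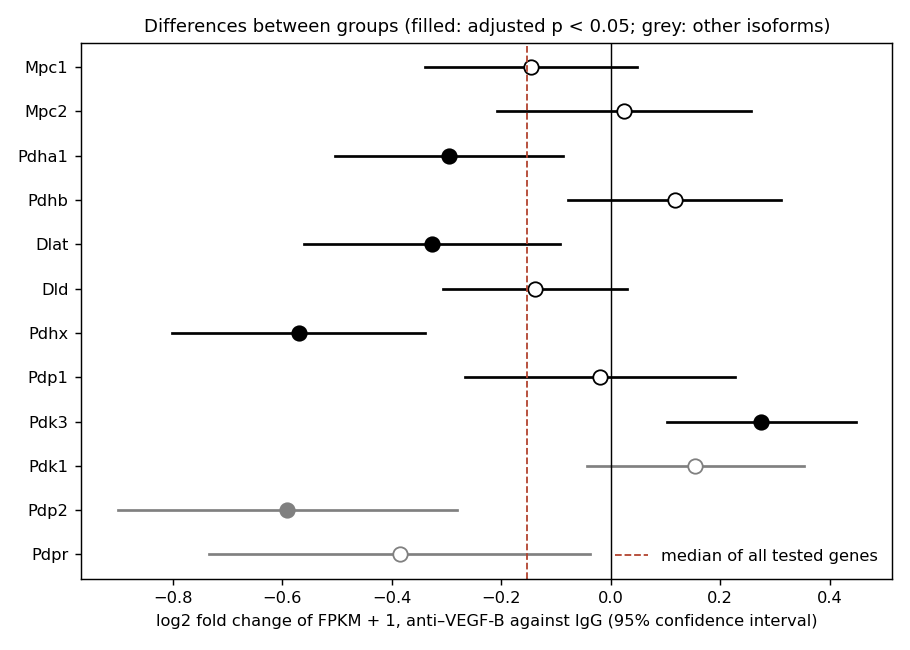
Log2 fold change of FPKM + 1 between anti–VEGF-B and IgG (horizontal axis, points) with its 95% confidence interval (lines) for the 9 genes (black) and for Pdk1, Pdp2 and Pdpr (grey), filled where the adjusted p was under 0.05. The dashed line is the median of all genes tested, -0.15, with the intervals of Pdhx and Pdp2 wholly below it, those of Pdk3, Pdhb and Pdk1 wholly above it and the other 7 across it.

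Among the genes that switch the complex off and on, Pdk3 rose. Pdk3 (ENSMUSG00000035232.8, chromosome X, 93764607 to 93832201), a pyruvate dehydrogenase kinase gene, was the most abundant of the 9 genes, at 50.7, 52.8 and 56.2 FPKM with anti–VEGF-B and 46.2, 41.3 and 44.0 FPKM with IgG. Each anti–VEGF-B library was above each IgG library. The means of 53.2 ± 2.77 and 43.8 ± 2.48 FPKM (SD, n = 3 each) differed 1.21-fold, and the log2 fold change was 0.27 (SE 0.0764, limma adjusted p = 0.0281). Of all genes tested, 94.1% had a lower log2 fold change. The call also passed after quantile normalization (0.30), cyclic loess (0.27) and median centring (0.48), but not when scaled to Actb (0.34, limma adjusted p = 0.0626). Leaving out anti–VEGF-B replicate 2 or 3 ended it (adjusted p of 0.0585 and 0.108), as did leaving out IgG replicate 2 or 3 (0.0850 and 0.0649), while the log2 fold change stayed between 0.23 and 0.31 in the 6 fits without 1 library. Over all alternatives the adjusted p of Pdk3 ran from 0.0139 to 0.108.

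Pdp1 (ENSMUSG00000049225.14, chromosome 4, 11958184 to 11966452) encodes the calcium-stimulated phosphatase that reactivates the complex. It was at 1.90, 1.51 and 1.80 FPKM with anti–VEGF-B and at 1.60, 2.03 and 1.70 FPKM with IgG. The groups overlapped, and the log2 fold change was -0.019 (95% confidence interval -0.27 to 0.23, limma adjusted p = 0.906), with a sign that changed with the scaling.

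The isoforms outside the 9 genes did not move as one with them. Pdk1, the kinase gene induced by hypoxia-inducible factor, was more abundant than Pdk3, at 103, 121 and 125 FPKM with anti–VEGF-B and 98.8, 105 and 110 FPKM with IgG. Its groups overlapped, and the log2 fold change of 0.15 did not pass (limma adjusted p = 0.204), but did after median centring (0.36, adjusted p = 0.0361, with a range of 0.0361 to 0.487 in its alternatives). Pdk2 had a mean under 1 FPKM and was not tested, with 0.302, 0.265 and 0.273 FPKM under anti–VEGF-B and 0.398, 1.07 and 0.390 FPKM under IgG. Pdk4 was not analysed here.

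Pdp2, the other phosphatase gene, fell. It had 1.503, 2.22 and 1.66 FPKM with anti–VEGF-B and 2.80, 3.86 and 2.95 FPKM with IgG, and the groups did not overlap. The means differed 1.79-fold, with a log2 fold change of -0.59 (SE 0.137, limma adjusted p = 0.0161). The adjusted p was 0.0548 after quantile normalization, 0.0519 after cyclic loess, 0.0513 without anti–VEGF-B replicate 1 and 0.0591 without anti–VEGF-B replicate 3, and ran from 0.0119 to 0.0934 over the alternatives. Pdpr, which encodes a regulatory subunit of the phosphatase, had 2.16, 2.79 and 2.05 FPKM with anti–VEGF-B against 2.47, 3.98 and 3.72 FPKM with IgG (log2 fold change -0.39, limma adjusted p = 0.0876), with overlapping groups. It passed without IgG replicate 1 (-0.55, adjusted p = 0.0209, with a range of 0.0209 to 0.446 in its alternatives).

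Summed within a library, the FPKM of Pdk1, Pdk2 and Pdk3 came to 170 ± 13.8 with anti–VEGF-B and 149 ± 4.51 with IgG, and those of Pdp1 and Pdp2 to 3.53 ± 0.178 and 4.98 ± 0.796 (SD, n = 3 each). The kinase sum was 45.4, 46.7 and 52.3 times the phosphatase sum under anti–VEGF-B and 33.0, 25.0 and 33.1 times under IgG. The ratio was higher in each anti–VEGF-B library, beside 49.0% of single genes tested whose groups did not overlap. The share of Pdp1 in the phosphatase sum was 49.5% ± 8.002 with anti–VEGF-B and 35.8% ± 1.17 with IgG. These sums were formed after the values had been seen and were not tested. Of the phosphatase genes only Pdp2 fell, and the ratios of Pdk3 and Pdk1 to Pdp1 alone had overlapping groups. After quantile normalization the log2 fold changes of Pdp1 and Pdp2 were 0.21 and -0.35.

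A ratio of FPKM of a gene pair within 1 library does not change when a library is multiplied by a single factor. Quantile normalization and cyclic loess can change it, and the ratios were not recomputed under them. Of 8 such ratios, 4 had groups that did not overlap, beside 49.0% of all single genes tested. The share among ratios of other gene pairs was not computed, so this count is no result about these pairs. In the E2 and E3-binding core, Pdhx was 0.390, 0.364 and 0.372 times Dlat with anti–VEGF-B and 0.545, 0.583 and 0.569 times with IgG. The spread within a group was small beside the gap, and the geometric mean ratio was 1.51-fold lower with anti–VEGF-B. The log2 difference was -0.59, and -0.24 with a pseudocount of 1 FPKM as in the limma fit. Dld was 7.84, 6.75 and 8.42 times Dlat with anti–VEGF-B and 6.61, 5.71 and 6.27 times with IgG, 1.23-fold higher. After quantile normalization the log2 fold changes of Dld and Dlat were closer, at -0.036 and -0.086, against -0.14 and -0.33 as deposited.

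Between target and kinase, Pdha1 was 0.488, 0.419 and 0.375 times Pdk3 with anti–VEGF-B and 0.641, 0.705 and 0.575 times with IgG, 1.503-fold lower. Against lactate dehydrogenase A, which turns pyruvate to lactate, Ldha was 26.0, 27.5 and 30.2 times Pdha1 with anti–VEGF-B and 21.4, 19.6 and 22.6 times with IgG, 1.31-fold higher. After quantile normalization the log2 fold changes of Ldha and Pdha1 were -0.023 and -0.22, against 0.086 and -0.30 as deposited. Each of the 4 ratios without overlap had p = 0.1 in a two-sided exact permutation test of the log2 ratios, the smallest that 3 against 3 libraries allow, and 0.2 after adjustment over the 8 ratios, so that none could pass. The ratios of Pdha1 to Pdhb (exact p = 0.2), Pdk3 to Pdp1 (0.2), Pdk1 to Pdp1 (0.4) and Mpc1 to Mpc2 (0.4) had overlapping groups. Pdha1 was 1.56 to 2.13 times Pdhb with anti–VEGF-B and 2.12 to 2.54 times with IgG, so that only anti–VEGF-B replicate 1 and IgG replicate 3 crossed. The Mpc1 to Mpc2 ratio spanned 3.86 to 3.96 with anti–VEGF-B and 3.84 to 5.01 with IgG.

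**Figure D3:**
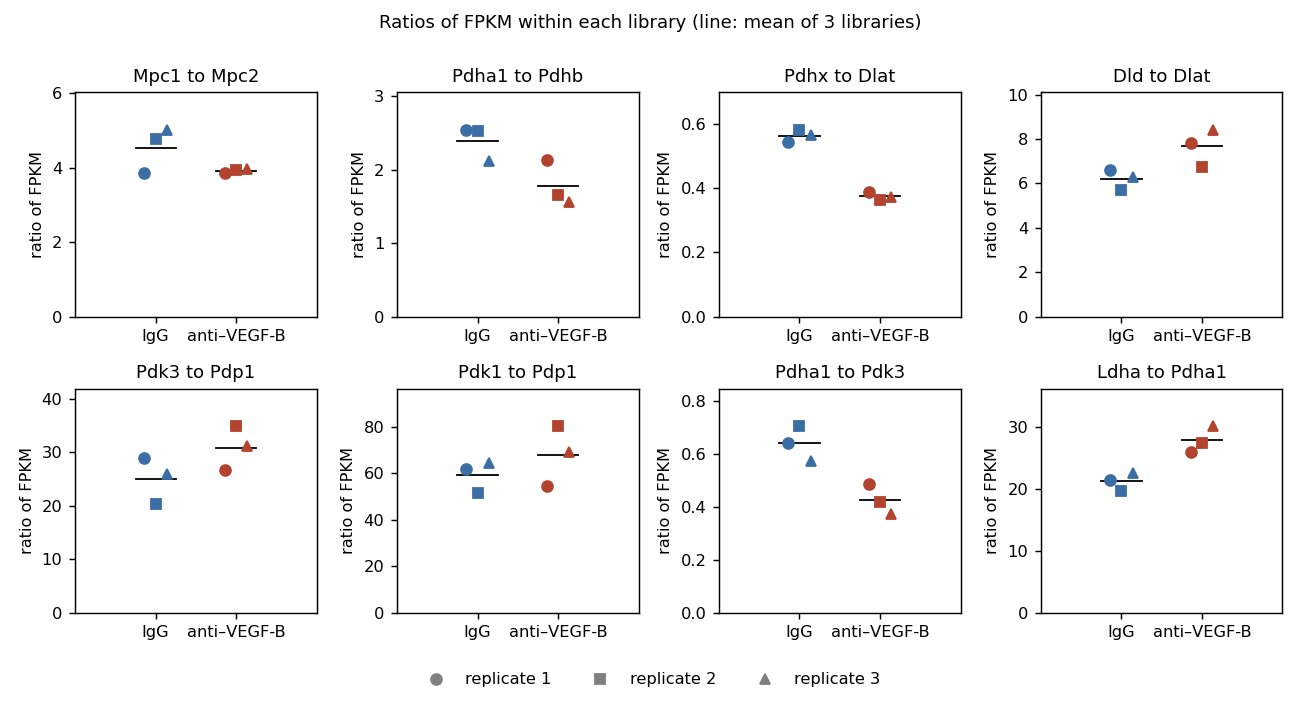
Ratios of FPKM (vertical axes, each starting at 0) of 8 gene pairs within each library, with IgG in blue, anti–VEGF-B in red, marker shapes for the replicate numbers and a line at the mean of 3 libraries. Pdhx to Dlat runs from 0.364 to 0.390 with anti–VEGF-B and from 0.545 to 0.583 with IgG, whereas the 2 groups of Pdk3 to Pdp1 overlap.

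In levels per transcript length, the 9 genes had the same order of mean FPKM in both groups. With IgG the mean FPKM fell from Pdk3 (43.8) through Pdha1 (28.0), Dld (19.0), Pdhb (11.7), Mpc1 (8.44) and Dlat (3.07) to Mpc2 (1.88), Pdp1 (1.78) and Pdhx (1.74). Each neighbour in this order was clear of the next in all 3 libraries down to Mpc2, and Mpc2, Pdp1 and Pdhx overlapped. With anti–VEGF-B Mpc2 and Pdp1 overlapped, and Pdhx at 0.843 FPKM lay below all 3 values of Pdp1. The coefficient of variation within a group ran from 1.69% (Dld with IgG) to 12.6% (Pdp1 with IgG).

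The calls of Dlat and Pdha1 changed with the scaling between libraries, and that of Pdhx did not under the 4 tried. Quantile normalization moved the all-gene median from -0.15 to 0.0077 on the log2 scale and the split of passing genes from 2099 lower and 429 higher to 913 lower and 880 higher. After it and after cyclic loess (938 lower and 852 higher), 2 of the 9 genes passed, Pdhx as lower and Pdk3 as higher. Median centring (807 lower and 1365 higher) gave 3, Pdhx as lower and Pdk3 and Pdhb as higher. Scaling to Actb, the beta-actin gene (1309 lower and 365 higher), gave Pdhx alone. Actb itself varied within a group, at 541, 461 and 468 FPKM with anti–VEGF-B and 501, 529 and 507 FPKM with IgG. Measured from the all-gene median, the log2 fold changes were -0.42 for Pdhx, -0.17 for Dlat, -0.14 for Pdha1 and 0.43 for Pdk3.

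**Figure D4:**
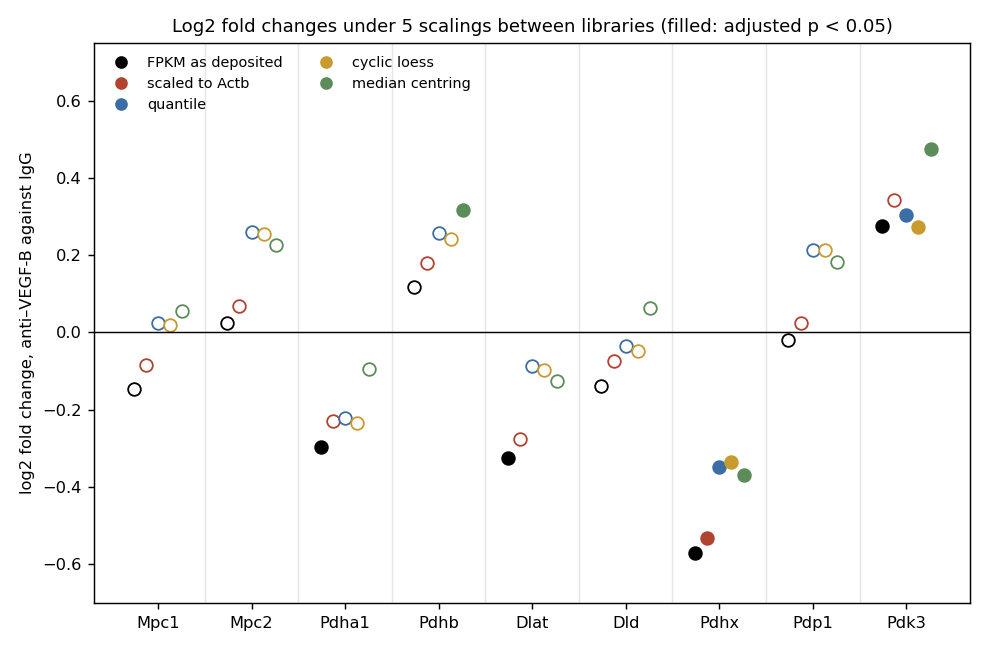
Log2 fold changes of the 9 genes (vertical axis) with FPKM as deposited and under 4 other scalings between libraries (colours), filled where the adjusted p was under 0.05. Pdhx runs from -0.57 to -0.34 and is filled under each scaling, while Pdha1 and Dlat are filled only for FPKM as deposited.

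The other genes of the pathway were taken as 5 lists with 49 genes, of which 37 were tested, 7 fell, 4 rose and 26 did not pass, beside 23.8% of all genes lower and 4.87% higher. Single lists hold at most 10 tested genes, so that their counts are given with these shares as background and as no result about a list. Their median log2 fold change was -0.18, beside -0.15 for all genes. Pdk4, Lipt2, Dhtkd1, Gldc, Slc16a7 and Me3 were not analysed here. The list of kinase and phosphatase isoforms is described above, with 1 of 3 tested genes lower.

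Of 8 tested genes that supply lipoate or thiamine diphosphate, the cofactors of E2 and E1, 2 fell and none rose. Isca2, a mitochondrial iron-sulfur cluster assembly gene, fell to 1.49 ± 0.0755 FPKM from 2.56 ± 0.215 (log2 fold change -0.51, limma adjusted p = 0.00975). Slc19a2, the gene of a thiamine transporter of the plasma membrane, fell from 10.8 ± 1.26 to 7.39 ± 0.184 FPKM (log2 fold change -0.48, limma adjusted p = 0.0114). Both passed in each fit without 1 library. Slc19a2 did not pass without moderation of variances (adjusted p = 0.0732, with a range of 0.0109 to 0.0732 in its alternatives). Isca2 did not pass after quantile normalization (adjusted p = 0.0527, with a range of 0.00979 to 0.0693 in its alternatives).

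Of 8 tested genes of the other 2-oxoacid dehydrogenases and of glycine cleavage, systems that share E3 with the pyruvate complex, 3 fell and none rose. Dbt, which encodes the E2 of the branched-chain complex, fell most, with 1.11, 1.21 and 0.434 FPKM under anti–VEGF-B and 2.09, 3.63 and 2.48 FPKM under IgG (log2 fold change -0.97, SE 0.196, limma adjusted p = 0.0111). It passed in each fit without 1 library and under each scaling. Without moderation of variances its adjusted p was 0.0969, the highest of its alternatives, over which it ran from 0.00709. Dbt (mean 0.918 FPKM with anti–VEGF-B) and Amt (0.9749) reached the filter of 1 FPKM through the IgG libraries, and without the filter their adjusted p was 0.0161 and 0.0398. Amt of glycine cleavage (log2 fold change -0.49, limma adjusted p = 0.0345) and Ppm1k, the phosphatase gene of the branched-chain complex (-0.33, adjusted p = 0.0477), passed under none of the 4 other scalings (adjusted p from 0.0598 to 0.338). In the fits without 1 library, Amt passed only without anti–VEGF-B replicate 2 (0.0193 to 0.120 over the 6) and Ppm1k only without IgG replicate 1 (0.0239 to 0.153).

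Of 8 tested genes for the formation of pyruvate and for lactate and monocarboxylate transport, 3 rose and none fell, with a median log2 fold change of 0.17. These were Bsg, the chaperone of monocarboxylate transporters (413 ± 18.6 to 496 ± 11.4 FPKM, log2 fold change 0.26, limma adjusted p = 0.0258), the enolase gene Eno1 (639 ± 38.5 to 754 ± 14.3 FPKM, 0.24, adjusted p = 0.0435) and the transporter gene Slc16a1 (42.5 ± 1.41 to 49.2 ± 1.03 FPKM, 0.21, adjusted p = 0.0488). In the fits without 1 library, Bsg passed only without IgG replicate 1 (adjusted p from 0.0233 to 0.0780), Eno1 likewise (0.0274 to 0.156) and Slc16a1 in none (0.0741 to 0.154). Of the 4 other scalings, Bsg and Slc16a1 each passed under 2, quantile normalization and median centring, and Eno1 under 1, median centring, with adjusted p up to 0.0617, 0.0880 and 0.200 and a log2 fold change of 0.10 for Eno1 after quantile normalization. Eno1 was also at 0.0501 without the filter and Slc16a1 at 0.0509 with a pseudocount of 0.1. Ldha had 629 ± 18.2 FPKM with anti–VEGF-B against 593 ± 36.4 with IgG (log2 fold change 0.086, limma adjusted p = 0.410), and was at -0.023 after quantile normalization and after cyclic loess. Of the 8 genes, 1 had a log2 fold change below 0, the transporter gene Slc16a3. It was lower in each anti–VEGF-B library, at 47.9 ± 1.07 FPKM against 59.4 ± 11.3 with IgG, and did not pass (-0.29, limma adjusted p = 0.0996).

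Of 10 tested genes for other fates of pyruvate and acetyl-CoA, 1 rose and 1 fell. Me2, the gene of a mitochondrial malic enzyme that forms pyruvate from malate, rose from 152 ± 3.12 to 178 ± 5.51 FPKM (log2 fold change 0.23, limma adjusted p = 0.0322). The alanine transaminase gene Gpt2 fell to 2.48 ± 0.197 FPKM from 3.48 ± 0.339 (log2 fold change -0.36, limma adjusted p = 0.0324). Each passed only without IgG replicate 1 among the 6 fits without 1 library (adjusted p from 0.0444 to 0.122 for Me2 and from 0.0430 to 0.0990 for Gpt2). Under the 4 other scalings Me2 passed only after median centring (0.0146 to 0.0777), and Gpt2 under none (0.0971 to 0.322), with a log2 fold change of -0.12 after quantile normalization.

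Over the 6 libraries, the genes whose log2 values followed most closely the mean standardized level of Pdha1, Pdhb, Dlat, Dld and Pdhx were Dusp6, Saysd1, Adcy6, Ppp5c and Clec2i (Pearson r of 0.998 each among 8807 genes compared). This is a description, since the 6 points share libraries and fall into 2 groups. Pdhb itself ran against this mean (r = -0.68), while Pdhx (0.99), Dlat (0.97), Dld (0.89) and Pdha1 (0.87) ran with it.

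The libraries carried the label's cell type, with all 6 CD4+ T cell markers present. These summed to 395 to 444 FPKM with anti–VEGF-B and 398 to 456 FPKM with IgG. Of the CD8 markers, Cd8a was at 0.18 FPKM or less and Cd8b1 at 2.27 to 4.51 FPKM. Of the 6 CD4+ T cell markers 2 fell, the T cell receptor complex gene Cd3e (16.0 ± 2.27 to 10.96 ± 1.69 FPKM, log2 fold change -0.51, limma adjusted p = 0.0197) and Cd5 (81.4 ± 10.9 to 62.0 ± 7.07 FPKM, -0.38, adjusted p = 0.0343). Cd3d, Cd3g, Cd4 and Cd28 did not pass. The CD8 list (Cd8a and Cd8b1) summed to 3.32 to 4.69 FPKM with anti–VEGF-B against 2.29 to 4.21 with IgG, and Cd79b, the B cell marker analysed of 4, lay between 0.665 and 1.34 FPKM in all 6 libraries. None of 2 NK and 3 erythroid markers was analysed here. The FPKM of a library summed to between 260058 and 276622. Of 5 myeloid markers 2 were analysed, Lyz2 and Csf1r, and their sum was 18.0 FPKM in IgG replicate 3 and 3.55 to 4.50 FPKM in the other 5 libraries. Without IgG replicate 3, 2 of the 9 genes passed, Pdhx and Pdha1, while Pdk3 and Dlat did not (limma adjusted p of 0.0649 and 0.0901). Of 4 activation markers, 2 moved with the groups, beside 28.7% of all genes tested that passed. Cd44 (log2 fold change -0.18, limma adjusted p = 0.168) did not pass. Tfrc, which was higher with anti–VEGF-B (0.098, adjusted p = 0.324), did not pass either. Mki67, a gene of dividing cells, had 2.09 ± 0.172 FPKM with anti–VEGF-B and 7.69 ± 1.64 FPKM with IgG (log2 fold change -1.48, limma adjusted p = 0.00279), and Il2ra, the high-affinity IL-2 receptor chain, 58.3 ± 7.01 and 117 ± 28.9 FPKM (-0.97, adjusted p = 0.00664). The part of these differences in the changes of Pdhx, Dlat, Pdha1 and Pdk3 was not tested, and fewer cells of one state cannot be told apart from less RNA per cell in bulk libraries. In the RefSeq annotation of the same assembly, Pdha1 overlaps Map3k15 and a lncRNA gene, Pdk3 and Mpc1 each overlap a lncRNA gene, and Mpc2 as listed overlaps Dcaf6. The library kit keeps the strand, but whether the quantification used it is not given in the sources used here.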

How the data were processed

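Stranded RNA-Seq reads were aligned by the authors to GRCm38 with hisat2 2.1.0 and quantified with StringTie 1.3.3 and Ballgown 2.10.0. The deposited values, 1 per gene and library, are not whole numbers although named raw data, and were used as the FPKM that these tools give. The sources state neither a normalization across libraries nor how the listed genes were selected. Below 0.3 FPKM at most 1.38% of genes shared a ratio between libraries, so whole reads could not be recovered and no count model was run.

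Genes averaging 1 FPKM or more were fitted on the log2(FPKM + 1) scale with limma 3.58.1 (R 4.3.3, empirical Bayes with trend, no covariate) over the 6 libraries, with Benjamini-Hochberg adjustment over all genes tested. The method was tested on simulated data, drawn independently for each gene and library and without a shift of all genes. That test does not cover a shift such as the all-gene median of -0.15 in these data. Ratios were tested with exact permutation over libraries. The alternatives changed scaling, filter, pseudocount, moderation, block and libraries.

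The members and lists were chosen with earlier results of these data known. The genes named were the members, the kinase and phosphatase isoforms, up to 4 passing genes of each other list, the genes of the ratios, 5 genes most like the subunits and the scaling gene. Marker genes, overlapping genes and Slc16a3 are named beside this rule, and Slc16a3, Mki67, Il2ra, Cd3e and Cd5 were singled out after their values were seen. Promoter sequences were not used here, so planned motif counts were not run.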

Additional observations from a re-analysis of the deposited data

How the results depend on the processing

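The number of genes passing among all tested was 2528, and moved by over 1.5 times to 1674 when scaled to Actb, 1331 under a filter of 5 FPKM and 12 with no moderation of the variance, and ran from 865 (without anti–VEGF-B replicate 3) to 2469 without 1 library, being 1330 without IgG replicate 2. Of the 9 members, 4 passed, against 1 when scaled to Actb, 2 each by quantile normalization and cyclic loess, 2 of the 5 left by that filter and 0 with no moderation (limma linear model with ordinary variances), where 6 had an unadjusted p under 0.05, beside 36.4% of all genes tested (3208). Without 1 library 1 to 3 passed, with 1 without anti–VEGF-B replicate 2, anti–VEGF-B replicate 3 or IgG replicate 2 and 2 without IgG replicate 3. Pdhx passed in 13 of its 14 alternatives, Pdk3 in 9 of 15, Pdha1 in 6 of 15 and Dlat in 3 of 14, and these 4 kept their direction in each. The cause of these changes was not tested.

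The sign of genes that did not pass changed for Mpc1 (median centring 0.056, quantile 0.025 and cyclic loess 0.019), Dld (0.063 after median centring), Pdp1 (median centring 0.18, quantile 0.21, cyclic loess 0.21 and Actb 0.024) and Ldha (-0.023 after both quantile normalization and cyclic loess). Without 1 library Mpc2 ran from -0.022 to 0.087 and Pdp1 from -0.064 to 0.045. With a pseudocount of 1 and without 1 library, the differences in the log2 ratios kept their sign. That of Pdhx to Dlat went from -0.59 to -0.24 with the pseudocount. The ratios were not recomputed under the other scalings. After quantile normalization the log2 fold change of Pdk1 was below that of Pdp1 (0.11 and 0.21). The same held after cyclic loess (0.11 and 0.21), against 0.15 and -0.019 as deposited.

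With the replicate number as a block, 2578 genes and 4 members passed. Same-numbered libraries did not deviate together (correlations of -0.030, 0.11 and 0.089), and not every library correlated best with its own number. The depth in reads is unknown, and 3 libraries a group limit the precision.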
